A study of Mus musculus with 4 samples.

Results

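The cells described here are nuclei with transcripts of motile-cilium genes, the ependymal nuclei of the brain, kept without any upper limit on mitochondrial RNA. A barcode was a member when it held at least 500 UMIs, when at least 3 of the 8 genes Foxj1, Ccdc153, Tmem212, Rarres2, Dnah11, Hydin, Dnah12 and Cfap299 had a UMI, and when Ttr, the choroid plexus transthyretin gene, took under 1% of its UMIs. Of 17802 barcodes 143 were members. Members were thus chosen by their measured UMIs on these 9 genes. The nuclei came from frozen hemispheres of 14-day-old C57BL/6 mouse brains and went through the 10x Genomics 3′ kit, version v3. All 4 libraries carried Slc17a6-Cre, a Cre recombinase expressed from the gene of the vesicular glutamate transporter VGLUT2. The 2 WT libraries had Ago2 wt/wt and the 2 libraries labelled cKO had Ago2 flox/flox, so that deletion is directed to VGLUT2 neurons and not to ependyma. A barcode is called a nucleus here only in the sense of a droplet, since droplets with more than 1 nucleus or with free RNA cannot all be told apart from single nuclei.

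Ependymal cells are ciliated glia that line the ventricles, and the beating of their cilia moves cerebrospinal fluid. Each motile cilium is built on an axoneme of microtubule doublets, with dynein arms as motors, nexin links and radial spokes that coordinate the stroke, and a central pair of microtubules. The transcription factor FOXJ1 and the RFX factors drive the genes of this programme. Mitochondrially encoded RNA (gene symbols beginning with mt-) is made outside the nucleus, and analyses of nuclei often discard barcodes above a set share of it, here 5%.

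RFX factors bind a DNA element called the X-box, which contains the half-site GTTGCC. Promoters of RefSeq genes (GRCm38.p6, 250 bases before to 50 bases after the start) were searched for GTTGCC on both strands. It was found in 24 of the 54 axoneme genes with a promoter in the table (44.4%), in 11 of 21 intraflagellar transport genes and in 14.1% of all 27025 promoters. Among the axoneme genes it was in 5 of 17 for dynein arms, 8 of 17 for spokes and central pair and 11 of 20 for links and doublets. It was also in 2 of 5 neuronal, 2 of 6 choroid plexus and 1 of 7 astrocyte marker genes. Those lists are short, so the half-site is not shown to be particular to ciliary genes. The windows below show it in genes that members expressed at high level. Capitals mark 1 half-site per window, all windows are on the plus strand, and GGCAAC is the half-site read from the opposite strand. The Spag16 window also holds GGCAAC, left in lower case, before the marked half-site.
Ccdc153, chr9:44240513-44240542: ctgagttttccaGTTGCCtggacaacgtgc
Hydin, chr8:110266952-110266981: tgcggttgctgtGGCAACagatggtaacaa
Spag16, chr1:69826855-69826884: actaggcaacgcGTTGCCgtagtaactgcg
Cfap44, chr16:44394658-44394687: ggacgactctgtGGCAACacctcagtttag
Dnah7b, chr1:46066678-46066707: tacaggagcacaGTTGCCacccacccttaa
The first base of the marked half-site lay 152, 13, 103, 129 and 163 bases before the start of Ccdc153, Hydin, Spag16, Cfap44 and Dnah7b. A match is a description of these letters and not a measured binding site.

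The 4 libraries held 3472 to 6752 barcodes and 10845009 to 29317266 UMIs, with WT replicate 2 the deepest. No source used here says whether the libraries came from separate animals, so every p measures the spread between libraries, which may be technical. Across the libraries 37 barcodes occurred more than once, 3 of them members. Doublet scoring marked 692 barcodes, of which 3 were members, all in cKO replicate 2. Ago2, the targeted gene, was at 96.9 and 94.3 CPM (counts scaled to 1000000 non-mitochondrial UMIs) in members of WT replicates 1 and 2, and at 72.5 and 122 CPM in cKO replicates 1 and 2. In the other barcodes it was at 75.8 and 80.9 CPM in WT and at 88.9 and 91.8 CPM in cKO, not lower in the libraries labelled cKO. The floxed exons are not named in any source used here, and reads from the 3′ end may lie outside them, so this level does not check the labels. Slc17a6, whose gene drives the Cre, gave 11 UMIs in all members together.

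Most ependymal nuclei lay above the usual mitochondrial limit. The share of members with at least 5% of UMIs on mt- genes was 84.0% in WT replicate 1, 75.8% in WT replicate 2, 48.1% in cKO replicate 1 and 65.5% in cKO replicate 2. In all, 97 of 143 members (67.8%, exact 95% interval 59.5 to 75.4, counting error only) were at or above 5%. In the other 17659 barcodes the shares were 17.3%, 8.45%, 5.31% and 5.13% in the same order of libraries. The difference within a library was 59.3 ± 11.4 percentage points (SD, n = 4 libraries), with a range of 42.8 to 67.3 and the members higher in 4 of 4. The exact sign-flip permutation test gave p = 0.125 (two-sided), the smallest p that 4 libraries allow, and 0.125 after adjustment over 20 such comparisons. The median mitochondrial share of members was 12.9%, 8.83%, 4.90% and 7.38% in WT replicates 1 and 2 and cKO replicates 1 and 2, with single members from 0.0528% to 43.5%. The medians of other barcodes were 0.136% to 0.718%.

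**Figure D1:**
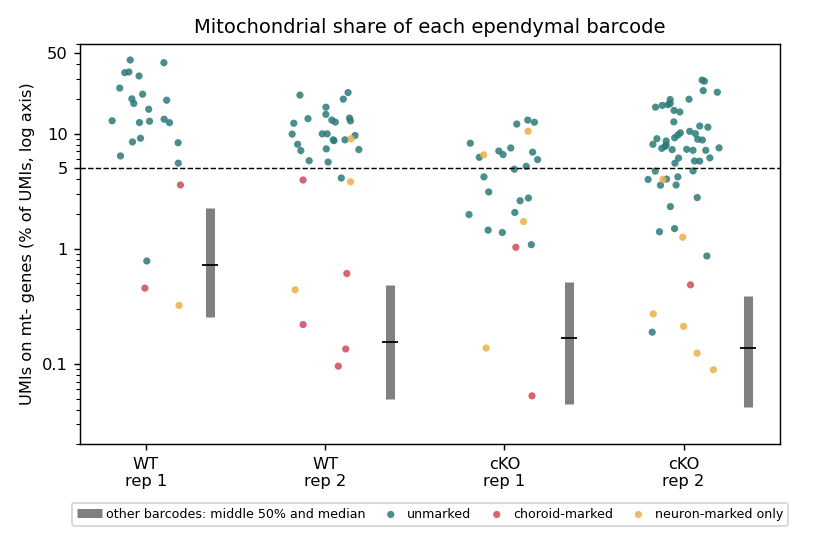
Each point is 1 member by library, on a log axis of the percent of its UMIs on mt- genes, coloured by whether it also carried choroid plexus or neuronal transcripts, with grey bars for the middle 50% of the other barcodes. Most unmarked members lie above the dashed line at 5%, and all 10 choroid-marked members lie below it.

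Members differed among themselves in whether they also carried RNA of another cell type. A member was called marked when at least 1% of its non-mitochondrial UMIs fell on 10 choroid plexus genes or on 8 neuronal genes, a limit set after the data were seen. Of the 143 members 24 were marked, 10 by the choroid plexus list and 15 by the neuronal list with 1 on both. They made up 21 of the 46 members under 5% mitochondrial UMIs and 3 of the 97 at or above it. The 119 unmarked members were at or above 5% in 21 of 22, 24 of 25, 11 of 21 and 38 of 51 barcodes of WT replicates 1 and 2 and cKO replicates 1 and 2, in all 94 of 119 (79.0%, exact 95% interval 70.6 to 85.9). Against the other barcodes the unmarked members were higher by 70.5 ± 17.3 percentage points (SD, n = 4 libraries, higher in 4 of 4, range 47.1 to 87.5; exact sign-flip p = 0.125).

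The edge of the rule separated barcodes of different make-up. The 142 barcodes just outside it, with 2 of the 8 genes, were at or above 5% mitochondrial UMIs in 1.41% of cases, and 105 of them reached the neuronal mark. The 20 members just inside it, with 3 of the 8 genes, were at or above 5% in 10.0% of cases, and 9 reached the choroid plexus mark and 8 the neuronal mark. With 6, 7 and 8 of the genes the shares were 78.1% of 32 members, 93.8% of 48 and 76.5% of 17. On the side of Ttr, 1 barcode with 3 or more of the genes was kept out, with 5.85% of its UMIs on Ttr. The 6 members with Ttr from 0.5% to under 1% were all choroid-marked, and 0 of them reached 5% mitochondrial UMIs. Around the mitochondrial limit itself the members were alike in number, with 8 from 4% to under 5% and 8 from 5% to under 6%.

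Vascular nuclei were the class nearest to ependyma in mitochondrial share. Classes were defined among non-members as barcodes with UMIs on at least 4 of the 8 or 10 genes of a marker list, a rule chosen after the data were seen. Endothelial-marker barcodes were at or above 5% in 77.9%, 65.4%, 34.9% and 60.2% of cases in WT replicates 1 and 2 and cKO replicates 1 and 2. The unmarked ependymal nuclei were higher by 19.99 ± 7.24 points (SD, n = 4 libraries, 4 of 4, range 14.3 to 30.6; exact sign-flip p = 0.125), and all members by 8.75 ± 3.74 points (range 5.32 to 13.3, 4 of 4). Mural-marker barcodes were at 35.7% to 64.7%. Astrocytes, the glia closest to ependyma by lineage, were at 3.75% to 19.6%, and choroid plexus-marker barcodes, from the epithelium that adjoins the ependyma, at 0 to 13.6%. OPC-marker barcodes (oligodendrocyte precursors) were at 0 to 0.730%. WT replicate 1 had the highest share in members and in 8 of the 9 classes, and in choroid plexus-marker barcodes cKO replicate 2 was slightly above it.

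**Figure D2:**
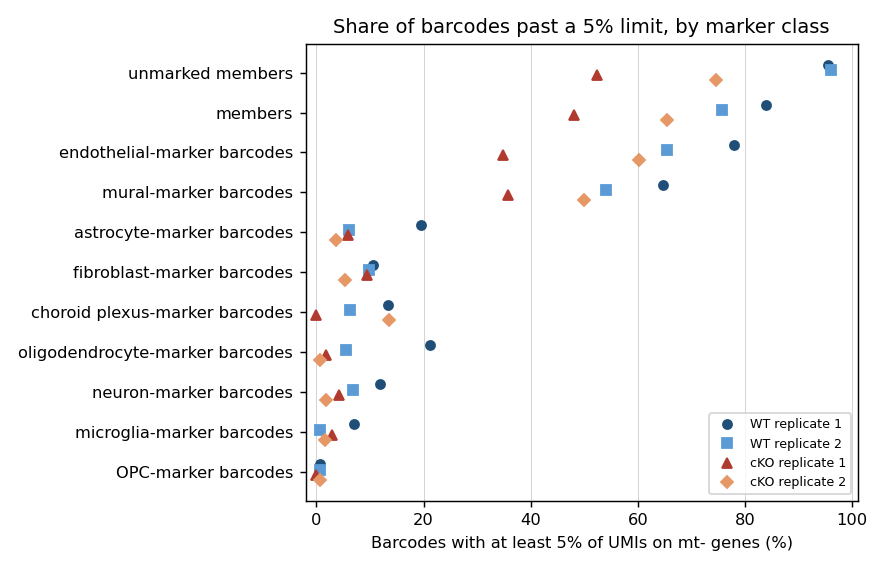
The percent of barcodes with at least 5% mitochondrial UMIs is plotted for each class, with 1 point per library. Unmarked ependymal nuclei range from 52.4% to 96.0% and endothelial-marker nuclei from 34.9% to 77.9%, while oligodendrocyte precursor nuclei do not exceed 0.730%.

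The difference from other barcodes was also present within bands of depth. The other barcodes at or above 5% had a median of 979 UMIs, but the 94 unmarked ependymal nuclei at or above 5% had a median of 4720.5. Among barcodes with 3000 to under 6000 UMIs, 40 of 48 unmarked members (83.3%) were at or above 5%, against 4.42% of the other barcodes and 74.4% of endothelial-marker barcodes. With 6000 UMIs or more, the shares were 82.9% of 41 unmarked members and 6.69% of other barcodes. Endothelial-marker barcodes of that depth came mostly from WT libraries, so they are compared by library. The shares of unmarked members and of endothelial-marker barcodes were 100% and 91.8% in WT replicate 1, and 100% and 78.1% in WT replicate 2. They were 62.5% and 71.4% in cKO replicate 1, and 66.7% and 76.9% in cKO replicate 2, so the order turned between the genotypes, in bands of 8 to 12 unmarked members a library.

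The mitochondrial RNA of ependymal nuclei also differed in make-up from that of endothelial-marker barcodes and of all other barcodes pooled. Astrocyte-marker and choroid plexus-marker barcodes were not compared singly. Of the mt- UMIs in barcodes at or above 5%, mt-Nd1, which encodes a subunit of respiratory complex I, took 2.82%, 2.52%, 3.58% and 2.67% in unmarked members of the libraries in the same order. In endothelial-marker barcodes it took 6.03%, 5.57%, 6.25% and 6.07%, and in all other barcodes 5.72% to 6.13%. The ependymal values lay below the others in every library, and the mean was 0.484 of that in other barcodes. A second complex I transcript, mt-Nd3, took 1.13% ± 0.270 (SD, n = 4 libraries) of mt- UMIs in unmarked members and 2.46% ± 0.299 in endothelial-marker barcodes. The cytochrome oxidase transcript mt-Co2 took 10.9% ± 0.281 against 13.97% ± 0.160. The opposite held for mt-Co1, also of cytochrome oxidase, at 17.2% ± 1.39 against 13.3% ± 1.29, and for mt-Nd4 of complex I, at 8.76% ± 0.190 against 6.56%. Each of these differences had the same sign in 4 of 4 libraries, with an exact sign-flip p of 0.125, the smallest possible, and 0.181 after adjustment over 26 comparisons. Shares add up to a whole, so a lower share of 1 transcript raises the others.

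The same was seen barcode by barcode. Among unmarked members at or above 5% with at least 200 mt- UMIs, 91 of 92 had a lower mt-Nd1 share than the endothelial-marker median of their library. For mt-Nd3 this was so in 90 of 92 and for mt-Co2 in 89 of 92. For mt-Nd4, 88 of 92 were above that median. Of 807 other barcodes, 395 were below it for mt-Nd1, 438 for mt-Nd3 and 453 for mt-Co2, and 503 were above it for mt-Nd4. These 807 include the 318 endothelial-marker barcodes, of which 159 lie on each side of the median by definition. The even split of the other barcodes is therefore partly set in advance.

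**Figure D3:**
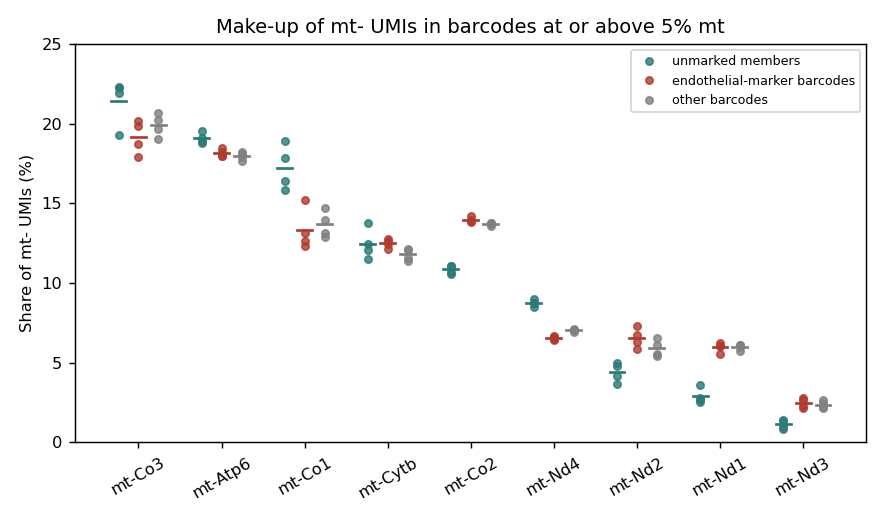
The share of mt- UMIs on each of 9 mitochondrial genes is plotted for barcodes at or above 5%, with 1 point per library and a line at the mean. Unmarked members are lower for mt-Nd1 (2.52% to 3.58%) than endothelial-marker barcodes (5.57% to 6.25%) in each library. The 2 comparison sets lie close together, but the other barcodes include the endothelial-marker barcodes.

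The rule chose members by 8 genes of the same nuclei, so the levels of genes in members are a description without a test. The given markers Foxj1, Tmem212, Dnah12 and Hydin are all among those 8 genes, and their levels restate the choice. Levels below are CPM in the summed unmarked members of WT replicates 1 and 2 and cKO replicates 1 and 2. CPM is not scaled by transcript length, so each gene is compared with itself in the other barcodes. Of the given markers, Dnah12, an axonemal dynein heavy chain, was at 2536, 2846, 2604 and 2690 CPM, against 3.76 CPM in the other barcodes. Hydin, a protein of the central pair, was at 1037, 1243, 1103 and 1303 CPM, and Tmem212 at 1272, 1349, 1158 and 1082 CPM. Foxj1, the master regulator of motile cilia, was low, at 56.8, 84.7, 163 and 73.8 CPM, with a UMI in 31.1% of the unmarked members.

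Genes of the ciliary motor that the rule did not use were far above their level in other barcodes. Dnah9, the outer-arm dynein heavy chain, was at 1165, 1137, 1067 and 1097 CPM, 39.4-fold above the other barcodes. Dnah6, an inner-arm heavy chain, was at 1201, 1511, 1121 and 1318 CPM, an 82.8-fold difference. The 4 libraries spread little for Dnah9, from 1067 to 1165 CPM. Of 20 dynein arm genes with UMIs in other barcodes, 19 were higher in the unmarked members in all 4 libraries, with a median fold of 61.3. Dnah7a, Dnah7b and Dnah7c are near-identical copies, and how reads were split between them is uncertain.

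The spokes, central pair and links between doublets were high as well. Of 21 spoke and central-pair genes 20 were higher in all 4 libraries (median fold 49.8), and of 25 nexin-link and doublet genes 22 (median fold 64.9). Spag16, a central-pair protein, was at 1577, 1921, 1827 and 1687 CPM. Spag17, also of the central pair, was at 1179, 1130, 723 and 1023 CPM, 257-fold above the other barcodes. Cfap44, a protein of the dynein tether at the doublets, was at 1151, 1370, 1564 and 1028 CPM, a 97.7-fold difference. For comparison, 11.8% of 25881 genes with UMIs in other barcodes were higher in the unmarked members in all 4 libraries, and the median fold over those genes was 0.626. Of these 25881 genes, 8912 had no UMI in the unmarked members, whose sums are far smaller than those of the other barcodes. Such genes cannot be higher and they lower the median fold. Both values are therefore a low baseline for genes that members express. Over the 3 axoneme lists together, 61 of 66 genes (92.4%) were higher in all 4 libraries. At least 10-fold higher were 58 of the 66 (87.9%), against 1349 of the 25881 genes (5.21%).

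Transport genes, which build primary cilia of other cells as well, stood out less. Of 25 intraflagellar transport genes, 22 were higher in all 4 libraries, but the median fold was 3.94. Of them 2 (8%) exceeded 10-fold, near the 5.21% of all 25881 genes. Ift88, a core subunit of the transport train, was at 377, 403, 497 and 393 CPM, 6.60-fold above other barcodes. Kif9, a kinesin of motile cilia, was 34.6-fold higher. Zmynd10, which helps assemble dynein arms in the cytoplasm, was at 21.3, 28.2, 72.3 and 73.8 CPM, from 30 UMIs in all.

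Among the regulators, Rfx3 was at 1265, 1441, 1519 and 1067 CPM and Rfx2 at 242, 339, 416 and 300 CPM, 5.04-fold and 39.5-fold above other barcodes. Of the 13 regulators listed, 6 were higher in all 4 libraries and 2 lower, with a median fold of 6.96. Myb, Deup1 and Trp73, which act during multiciliation, were 28.9-fold, 15.4-fold and 8.68-fold higher, while Mcidas gave 1 UMI, and Ccno and Foxn4 gave 0 UMIs. The genes Nnat and Tm4sf1, seen in ependyma, were 10.5-fold and 58.7-fold higher. Of 18 polarity and adhesion genes 6 were higher and 4 lower in all 4 libraries, with a median fold of 1.17. Among its planar polarity cadherins Celsr1 was 22.7-fold higher, at 63.9 to 134 CPM, while Celsr2 and Celsr3 had folds of 0.193 and 0.303. Celsr1 was the 1 gene of the list past 10-fold (5.56% of it), near the 5.21% of all 25881 genes. Aqp4, the water channel shared with astrocytes, was at 497, 233, 172 and 162 CPM, so WT replicate 1 stood above the others. Of the 8 neuronal list genes 8 were lower in all 4 libraries, but the marking by that list used those genes.

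The genes with the largest fold in all members over other barcodes, among genes of at least 50 CPM, were Unc5cl, Zfp474, Sntn and Fam216b. Unc5cl was at 545 ± 67.2 CPM (SD, n = 4 libraries), 1525-fold above other barcodes. Sntn encodes sentan, a protein of the ciliary tip. Of the 20 leading genes 3, Tmem212, Ccdc153 and Dnah12, belong to the rule.

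Summed over the 66 axoneme genes, the unmarked members held a median of 3.00% of their non-mitochondrial UMIs (range 0.531% to 4.46%), and 115 of 119 held at least 1%. The marked members held a median of 0.822%. Of the 17659 other barcodes 11 held at least 1%, and the 99th percentile was 0.310%. The unmarked members under 5% mitochondrial UMIs held a median of 2.46% and those at or above it 3.08%. A limit of 5% therefore removed 94 of the 119 unmarked members, and the 25 that it kept had an axoneme share within the same range.

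**Figure D4:**
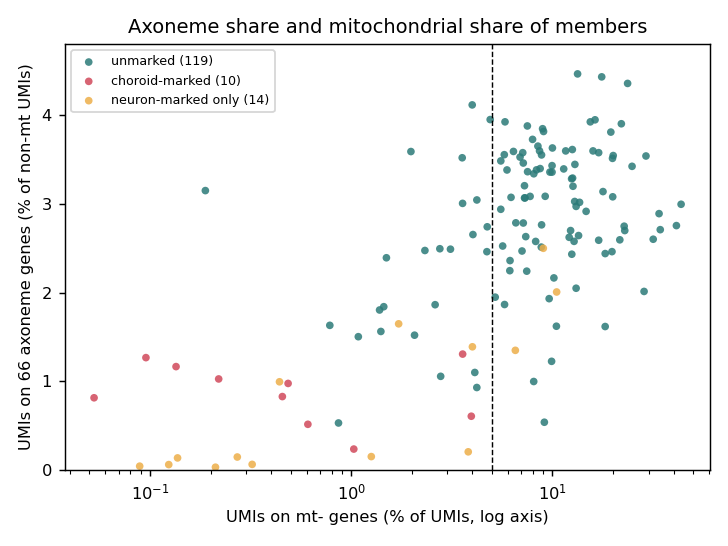
Each point is 1 of the 143 members, placed by the percent of UMIs on mt- genes (log axis) and by the percent of non-mitochondrial UMIs on 66 axoneme genes. Unmarked members at or above the dashed 5% line have a median axoneme share of 3.08% and those under it 2.46%, and the marked members lie mostly at low values of both.

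At an equal depth of 2000 non-mitochondrial UMIs per nucleus, 21 low and 81 high unmarked members remained, after 4 and 13 shallower ones were left out. Dnah9 then had a UMI in 85.7% of the low and 88.9% of the high members (88.0% and 93.6% without thinning). Cfap54, a central-pair gene, had a UMI in 66.7% and 97.5% (88.0% and 97.9% without thinning). Rfx2 was found in 42.9% and 42.0%, and Foxj1 in 19.0% and 17.3%. In 10285 neuron-marker barcodes thinned in the same way, the shares were 4.39% for Dnah9, 5.27% for Cfap54, 1.27% for Rfx2 and 0.165% for Foxj1, which is the level to read as background. The unthinned medians were 4221 UMIs in the low members, 4000.5 in the high members and 2775 in the neuron-marker barcodes.

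Across all members, the nuclei at or above 5% mitochondrial UMIs had more RNA of ciliary genes and less of choroid plexus and neuronal genes than those under 5%. UMIs were summed per library and mitochondrial class and tested with the edgeR quasi-likelihood test, with the library as a block and the mt- genes left out. Sums needed 10 members, which left the 2 cKO libraries (14 and 20 low, 13 and 38 high members), so the test says nothing of WT. Of 3025 genes, 127 (4.2%) were higher and 239 (7.9%) were lower at or above 5% at an adjusted p of 0.05, and the median log2 difference over all genes was -0.047. Of these, 6 higher genes and the lower gene Ttr belong to the rule and are not read here. DESeq2 called 58 genes in all. Without TMM factors the split was 252 higher and 235 lower, and with DESeq2 it was 7 and 51.

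Of 52 axoneme genes tested, 17 were higher and 0 lower, with a median log2 difference of 1.05. They were 4 of 19 dynein arm genes, 6 of 14 spoke and central-pair genes and 7 of 19 link and doublet genes. Mns1, a protein inside the microtubule doublets, was at 63.0, 41.7, 45.9 and 40.0 CPM in low members of WT replicates 1 and 2 and cKO replicates 1 and 2, and at 238, 228, 270 and 219 CPM in the high members. The log2 difference, fitted on the cKO libraries, was 2.32 (SE 0.518, edgeR adjusted p = 0.00315). The low sums held 15878, 72016, 108859 and 149897 non-mitochondrial UMIs in the same order of libraries. The low Mns1 values therefore rest on few UMIs. Of the UMIs in those low sums, 88.0%, 92.6%, 54.4% and 55.8% came from marked members. Spag16 was at 630, 1208, 1047 and 654 CPM in low members and at 1592, 1991, 1903 and 1955 CPM in high members (log2 difference 1.07, SE 0.335, edgeR adjusted p = 0.0325). Of 14 intraflagellar transport genes 0 were called, with a median of 0.63.

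The 10 genes with the largest rises included Endog, Bank1, Malrd1, Morn3 and Ccdc33. Endog, which encodes the mitochondrial nuclease endonuclease G from the nuclear genome, was at 0, 0, 55.1 and 53.4 CPM in low members and at 209, 335, 426 and 314 CPM in high members. The log2 difference, fitted on the cKO libraries, was 2.57 (SE 0.471, edgeR adjusted p = 4.79e-04). The low Endog values also rest on few UMIs, and on the same low sums, whose UMIs came mostly from marked members. Prtn3 had 0 UMIs in the low sums of both tested libraries and was at 114 and 102 CPM in their high sums.

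The falls were led by genes of the choroid plexus. Htr2c, the serotonin receptor of choroid plexus and some neurons, was at 9510, 13858, 7772 and 1755 CPM in low members and at 36.01, 42.8, 28.4 and 43.8 CPM in high members. Its log2 difference was -6.62 (SE 0.505, edgeR adjusted p = 7.4e-11), and all 3 choroid plexus genes tested fell (Ttr, Htr2c and Enpp2), of which Ttr is bounded by the rule. Of 7 neuronal genes tested 5 fell, with a median of -2.12. Cdh18, a cadherin of neurons, was at 819 to 1102 CPM in low members and at 43.2 to 193 CPM in high members. Meg3, a long RNA abundant in neuronal nuclei, fell by 1.93 on the log2 scale.

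The marked members moved with this result. They held 54.4% and 55.8% of the non-mitochondrial UMIs of low members in cKO replicates 1 and 2, and 13.4% and 0 of those of high members. Of the Htr2c UMIs of cKO members, 1049 of 1117 came from choroid-marked members. Htr2c is on the list that defines the choroid mark, so this share is partly set by the marking. With the marked members left out, 1 of 1544 genes (0.0648%) was called and 130 had an unadjusted p under 0.05. The 113 of the 127 higher genes that could still be tested all kept their sign, but 0 passed and their median log2 difference went from 1.46 (over the 127) to 0.71. Of the 90 lower genes still tested, 67 kept their sign. Of 42 axoneme genes 0 were called and 39 had a positive sign, against 792 of all 1544 genes, with a median of 0.32. Mns1 was then at 1.53 and Endog at 1.56 on the log2 scale (edgeR adjusted p = 0.371 for both).

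The gene called without marked members was Gpc5, a glypican of the cell surface, named because it was the single call. In unmarked members of cKO replicates 1 and 2 it was at 524 and 1856 CPM under 5% and at 131 and 328 CPM at or above 5% (log2 difference -2.38, SE 0.352, edgeR adjusted p = 0.0115). A UMI was found in 4 of 10 and 5 of 13 low members, and 1 barcode per library held 21 of the 26 and 76 of the 123 UMIs. Over all unmarked members, Gpc5 was at 0.420 of its level in other barcodes and at 0.0666 of that in astrocyte-marker barcodes. Members were not marked by astrocyte genes, so the part of astrocyte RNA in this call was not tested.

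To let all 4 libraries in, the minimum was lowered to 4 members per sum, an alternative added after the data were seen. Then 275 of 2769 genes were higher and 208 lower, and 36 of 49 axoneme genes were higher. This fit holds the cKO sums of the first one as well, so it is no independent check of its calls. In the WT libraries 3 of 4 and 7 of 8 low members were marked.

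Ependymal nuclei were more frequent in both cKO libraries, but 2 libraries a group cannot pass a test at 0.05. The difference of 0.668 points was 0.217 without cKO replicate 2 and 1.12 without cKO replicate 1. Members made up 0.615% and 0.489% of barcodes in WT and 0.769% and 1.67% in cKO. The means were 0.552% ± 0.0892 and 1.22% ± 0.638 (SD, n = 2 libraries each). The exact permutation test gave p = 0.333 (two-sided), the smallest that 2 against 2 allows. The share of members at or above 5% mitochondrial UMIs was 79.9% ± 5.83 in WT and 56.8% ± 12.3 in cKO, again without overlap and with the same exact p = 0.333. For the unmarked members it was 95.7% ± 0.386 and 63.4% ± 15.6 (exact p = 0.333). Since members differ in mitochondrial share between libraries, a limit of 5% left 1 unmarked member in each WT library but 10 and 13 in the cKO ones. Preparation and genotype cannot be told apart as causes of that difference. The share of other barcodes at or above 5% was also higher for both WT libraries (17.3% and 8.45%) than for cKO (5.31% and 5.13%).

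The genes called between genotypes were Cntn5, Lrrtm4, Pcdh15, Unc5d, Nrg3 and Rbfox1, of which Nrg3 and Rbfox1 are on the neuronal list. Of 4443 genes tested on the sums of all members, 6 were higher in cKO and 0 lower (0.135%, edgeR quasi-likelihood test at an adjusted p of 0.05), and 356 had an unadjusted p under 0.05. Cntn5, a contactin of neuronal membranes, was at 84.0 and 94.3 CPM in WT replicates 1 and 2 and at 1238 and 519 CPM in cKO replicates 1 and 2 (log2 difference 3.28, SE 0.408, edgeR adjusted p = 0.00681). Lrrtm4, a synaptic organizer, was at 472 and 462 CPM in WT and at 2309 and 1488 CPM in cKO (log2 difference 2.03, SE 0.264). For both genes the groups were far apart, and cKO replicate 1 was the highest. Pcdh15, Unc5d, Nrg3 and Rbfox1 had log2 differences of 2.26, 2.18, 1.56 and 1.498, with edgeR adjusted p values of 0.0146, 0.0117, 0.0455 and 0.0491.

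Neuron-marked members moved with these genes. Of the 371 Cntn5 UMIs in cKO members, 315 came from neuron-marked members, and 246 from the largest member of each cKO library. For Lrrtm4 it was 722 of 841 UMIs from neuron-marked members. For Rbfox1 it was 1053 of 1278, a share partly set by the marking, since the neuronal list includes Rbfox1. Those largest members held 44759 and 32581 UMIs, with 2.44% and 2.13% of non-mitochondrial UMIs on the neuronal list and 0.237% and 0.152% on axoneme genes, and the second was marked as a doublet. With the marked members left out, 0 of 3306 genes were called and 149 had an unadjusted p under 0.05. Cntn5 was then at 92.4, 91.8, 190 and 172 CPM and Lrrtm4 at 490, 410, 317 and 408 CPM. In WT replicate 1, however, 40 of the 69 Lrrtm4 UMIs of unmarked members came from 1 barcode. That barcode held 31009 UMIs, with 0.539% of its non-mitochondrial UMIs on axoneme genes, so the WT replicate 1 level of Lrrtm4 rests largely on it. With doublets left out, or with 4 of the 8 genes required, 0 genes were called as well. With WT replicate 1 left out there were 52 calls and with WT replicate 2 left out 55. With cKO replicate 1 left out there were 64, and with cKO replicate 2 left out 102. With the replicate number as a block there were 50 calls.

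**Figure D5:**
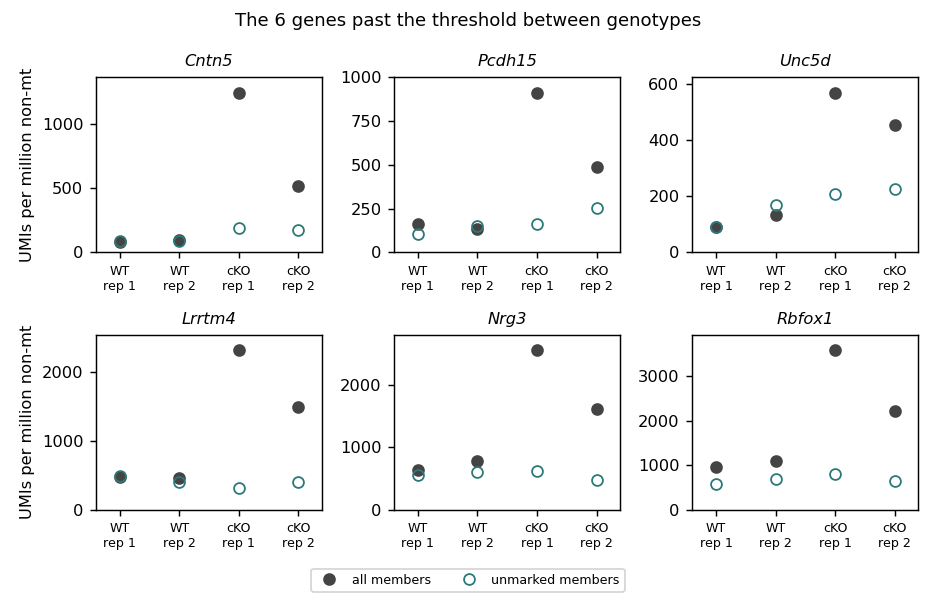
The level in CPM of the 6 genes past the threshold is plotted per library, as filled points for all members and open points for unmarked members. In all members both cKO libraries lie above both WT libraries, and in unmarked members the range narrows, for Cntn5 from 84.0 to 1238 CPM down to 91.8 to 190 CPM.

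Of 56 axoneme genes tested between genotypes 0 were called, against 0.135% of all genes, a share at which few calls would fall in any list of this size. In all members 46 of them had a negative sign, against 2242 of all 4443 genes, with a median log2 difference of -0.27. In unmarked members the median was -0.092. In unmarked members Dnah9 was at 1151 ± 19.9 CPM in WT and 1082 ± 21.0 CPM in cKO (SD, n = 2 libraries each). Spag17 spread more, at 1155 ± 34.9 CPM in WT and 873 ± 212 CPM in cKO. Ago2 had a log2 difference of 0.079 (SE 0.415, edgeR adjusted p = 0.998). Of 25 ribosomal protein genes 0 were called, which the same 0.135% makes uninformative, and 24 had a negative sign, with a median of -0.97. Their summed level in unmarked members was 6245, 3771, 2396 and 3049 CPM in WT replicates 1 and 2 and cKO replicates 1 and 2, and in the other barcodes 4034, 2386, 1525 and 1755 CPM, the same order of libraries. The smallest p among lower genes was that of Mecom, on the endothelial marker list, at 646, 250, 117 and 112 CPM (log2 difference -1.93, edgeR adjusted p = 0.0772).

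The genotype difference itself was compared between mitochondrial classes as an interaction, over sums of at least 4 members. Of 3889 genes, 15 were called (0.386%, edgeR adjusted p under 0.05), 14 of them with a lower cKO-to-WT ratio at or above 5%. There were 3 calls without TMM factors and 0 with DESeq2. Leaving out a WT library raised the calls to 35 (replicate 1) or 24 (replicate 2), and leaving out a cKO library lowered them to 0 (replicate 1) or 1 (replicate 2). Among the 15, Dnah12, is a rule gene and its term is not read here. Wdr49 was at 0, 0, 377 and 294 CPM in low members of WT replicates 1 and 2 and cKO replicates 1 and 2, and at 1001, 1341, 1022 and 949 CPM in high members. The high sums of the genotypes overlapped, and the low WT sums held 0 UMIs of Wdr49. Spag17 was at 63.0, 27.8, 276 and 467 CPM in low members and at 1188, 1149, 753 and 1036 CPM in high members. The low WT sums held 15878 and 72016 non-mitochondrial UMIs in all, so their Spag17 values rest on few UMIs. In the low WT sums 3 of 4 and 7 of 8 members were marked, and without marked members 1 and 1 remained, so the interaction could not be fitted there.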

How the data were processed

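Nuclear RNA of 4 libraries, 2 WT and 2 labelled Ago2 cKO, was deposited by the authors as whole UMI counts per gene and barcode, not normalized, per the file headers made with Cell Ranger 4.0.0. GRCm38 and Seurat 3.2.3 are named in the submitters' processing notes. Whether introns were counted, and the annotation release, is not given in the sources used here. Hemispheres are named in the protocol but cortical cells in the design text.

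All barcodes with at least 500 UMIs were kept (this removed 0), with no upper mitochondrial limit. The 13 mt- genes were left out of CPM totals and gene tests. Doublets were scored with Scrublet in scanpy 1.11.5, taking the highest scores up to 0.8% per 1000 barcodes because its automatic threshold marked 5 barcodes in all. They were kept except in the alternative named. Sums per library, or per library and mitochondrial class, were tested with edgeR 4.0.16 (quasi-likelihood, filterByExpr, TMM, two-sided, Benjamini-Hochberg, threshold 0.05) in R 4.3.3. DESeq2 1.42.0 was an alternative. The interaction was planned for sums of at least 10 members and run at 4, since 10 could not be fitted. Library shares were compared with exact permutation tests (numpy 2.4.6, scipy 1.17.1). The test scripts were tested on simulated data. The summed members are bulk values: within a sum, fewer members with a transcript and less of it per member cannot be told apart.

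Members, gene lists, marks and classes were chosen with earlier results of these data known. Named genes were, per comparison, the 10 largest changes in each direction among genes past the threshold that changed the same way in every library. Between genotypes, where fewer than 3 passed in a direction, the 3 smallest p were added. The rule genes, Ago2, Slc17a6 and, of each list, members past the threshold and up to 4 of the highest CPM completed the set. Exact 95% intervals cover counting error only. Promoter windows are from RefSeq GRCm38.p6, with 54 of 68 axoneme genes matched.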

Additional observations from a re-analysis of the deposited data

Results flagged for a closer look

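The genotype difference was not the same in the 2 mitochondrial classes of members for 15 genes, by the edgeR interaction term over sums of at least 4 members with the library as a block. The count was 3 without TMM factors, 0 with DESeq2, 35 or 24 with a WT library left out (replicate 1 or 2), and 0 or 1 with a cKO library left out (replicate 1 or 2). The lower ratios at or above 5% included Spag17 (log2 interaction -3.90, SE 0.876, edgeR adjusted p = 0.0228), a central-pair gene, and Dthd1 (-7.60, SE 1.68). They also included Lrrtm4 (-2.69), Robo1 (-3.03), Dcc (-3.12) and Alk (-5.41), which were lower in unmarked members than in other barcodes. The calls were thus not limited to ciliary genes. C330002G04Rik was the single gene with a positive term (4.45, SE 0.976). The 2 WT sums under 5% held 4 and 8 members, 3 and 7 of them marked by choroid plexus or neuronal genes. The part of those members in the result was not tested.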

How the results depend on the processing

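The number of members moved from 143 to between 116 and 144 over the rule alternatives. The difference of members from other barcodes at or above 5% was 59.3 points, 71.1 with at least 5 of the 8 genes and 29.5 for a limit of 10%. It was 56.6 to 64.8 with 1 library left out. The cKO minus WT difference in the share of members (0.668 points) was 0.217 to 1.12 with 1 library left out. For the mitochondrial classes, 366 genes were called, 170 with Ttr under 0.5%, 183 without the block, 237 without the low-count filter, 58 with DESeq2, 10 at a limit of 10%, and 1 without marked members (1 also at 3 per sum). With at least 4 per sum and 1 library left out there were 267 to 464 calls. Between genotypes, 6 genes were called. There were 0 calls with at least 4 or at least 5 of the 8 genes, without doublets, without marked members, in members at or above 5%, and in those under 5% (4 per sum). There were 17 with Ttr under 0.5%, 15 without TMM, 11 with DESeq2 and 75 without the filter. With the replicate block there were 50, and 52 to 102 with 1 library left out. Replicate numbers are not stated to pair libraries, and deviations of same-numbered libraries had r = -0.094 over 4443 genes. The interaction gave 15 calls, 3 without TMM, 0 with DESeq2 and 0 to 35 with 1 library left out. Signs turned for Lrrtm4 (-0.32 without marked members, -0.075 at or above 5%) and Nrg3 (-0.12 without marked members). The cause of these changes was not tested. The test of mitochondrial classes was not run at a limit of 2%, with 4 or 5 of the 8 genes, or without a cKO library, because under 2 libraries remained. WT libraries did not enter it. The genotype test of members under 5% at 10 per sum and the interaction with 4 of the 8 genes could not be fitted. With 25 unmarked members under 5%, depth limits what the comparison of unmarked classes can detect.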
